A study of Mus musculus with 54 samples.

Results

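This comparison set a line of expanded neural stem cells (NSC) against early neural progenitor cells (NPC), both made from mouse embryonic stem (ES) cells. It used 2 of the series' 54 samples, 1 library of each kind, and the deposited gene table that holds them. Of the table's 39067 entries, 12511 genes were compared, namely those with at least 1 FPKM (fragment counts scaled by transcript length and sequencing depth) in 2 or more of its 7 columns. Both cell types came from 46C, an ES line of strain 129/Ola with green fluorescent protein (GFP) knocked into the Sox1 gene. The cells spent 6 days in serum-free N2B27 medium, and those positive for GFP were sorted. RNA of the NPC library was taken from the sorted cells. The NSC library came from sorted cells that were then grown in N2B27 with EGF and FGF-2 (10 ng/ml) up to passage 15. The labels give no other treatment for either. The other 5 columns served only as a scale for each level. They hold wild-type ES cells of the lines CJ7 and JF4 (129S1/SVImJ) and J1 (129S4/SvJae) at days 0, 2, 4 and 6 of LIF withdrawal (days 0, 2 and 6 as the authors' means, day 4 as 1 library) in serum, and 1 library of mesendoderm (ME, 129/Ola), sorted for GFP in the T gene after 6 days without LIF. With 1 library on each side there is no replicate check, and no difference below was tested. Time in culture, the growth factors, the sort before harvest and the library itself cannot be told apart.

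Neural induction in adherent serum-free culture first yields neuroepithelial progenitors that express the transcription factor Sox1 and soon begin to make neurons. Cells kept in EGF and FGF-2 instead grow as a homogeneous adherent line that resembles radial glia, the elongated stem cells of the developing brain, and that expresses the brain fatty acid binding protein Fabp7, the glutamate transporter Slc1a3 and Olig2. Bulk RNA cannot tell fewer cells of a type from less RNA per cell.

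The 4 genes named as markers for this contrast separated the libraries. Fabp7 (chromosome 10, 57504729 to 57508256, plus strand, build mm9) stood at 1227 FPKM in NSC and 225 in NPC, and at 2.27 or less in the other 5 columns. Bcan, which encodes the proteoglycan brevican (chromosome 3, 87791453 to 87804278, minus strand), stood at 169 FPKM in NSC, 0.525 in NPC and 0.144 or less elsewhere. Both were highest in NSC. Crabp2, a carrier of retinoic acid (chromosome 3, 87752615 to 87757294, plus strand), stood at 0.308 FPKM in NSC and 886 in NPC, against 6.49 to 14.9 in the rest. Nefm, the medium neurofilament subunit (chromosome 14, 68737602 to 68743061, minus strand), stood at 3.40 FPKM in NSC and 238 in NPC, and at 10.2 to 93.5 in the rest. For both, NPC was the highest column and NSC the lowest. Sox1, the gene that carries the reporter of the sort, was at 21.8 FPKM in NPC and 0.910 in NSC, and at 0.827 or less elsewhere. The level in NPC follows from the gate and is no finding, whereas the NSC library, made after passage 15 of a culture founded by sorted cells, had a level near those of unsorted ES cells.

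Both libraries also shared a mark of their parent line. Hprt, chosen for this check after its values were seen, was at 0.366 FPKM in NSC and 0.509 in NPC, and at 58.5 to 95.2 in the other 5 columns. 46C was made from E14Tg2a, an ES line known to lack a working Hprt gene. The Y-linked gene Eif2s3y was at 1.06 FPKM in NSC, 4.00 in NPC and 18.7 in ME, and at 21.2, 25.7, 2.26 and 26.1 at days 0, 2, 4 and 6, so that day 4 lay between NSC and NPC. Ddx3y was at 0.488 FPKM in NSC, 1.28 in NPC and 1.62 to 9.58 in the other 5 columns.

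Over all compared genes the difference of log2(FPKM + 1), NSC minus NPC, had a median of -0.03 and a standard deviation across genes of 1.06. A gene is counted as higher or lower where this difference reached 1 log2 unit, a fold of 2 on that scale, which understates the fold of genes near 1 FPKM. By this count 1329 genes (10.6%) were higher in NSC and 1365 (10.9%) were lower, and 9817 lay between. At 2 log2 units or more, a fold of 4, there were 376 higher and 416 lower. Among named genes (11548 of those compared, leaving out unnamed assembled loci and symbols of the Gm and Rik kinds), NSC was the highest of the 7 columns in 1048 of the 1239 called higher (84.6%), against 27.9% of all compared named genes. NPC was the highest column in 542 of the 1239 called lower (43.7%), against 18.4% of all. Against ES cells at day 0, NSC was at least 1 log2 unit higher in 75.5% of the genes called higher, beside 20.2% of all compared named genes, and NPC lay within 1 log2 unit of day 0 in 66.8%, beside 74.5% of all. Of the genes called lower, 55.0% had an NSC level at least 1 log2 unit under day 0, beside 15.9% of all, and 34.5% had an NPC level at least 1 log2 unit over it, beside 14.8% of all. The call itself bears on all of these shares. The plot of NSC against NPC levels shows both arms.

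**Figure D1:**
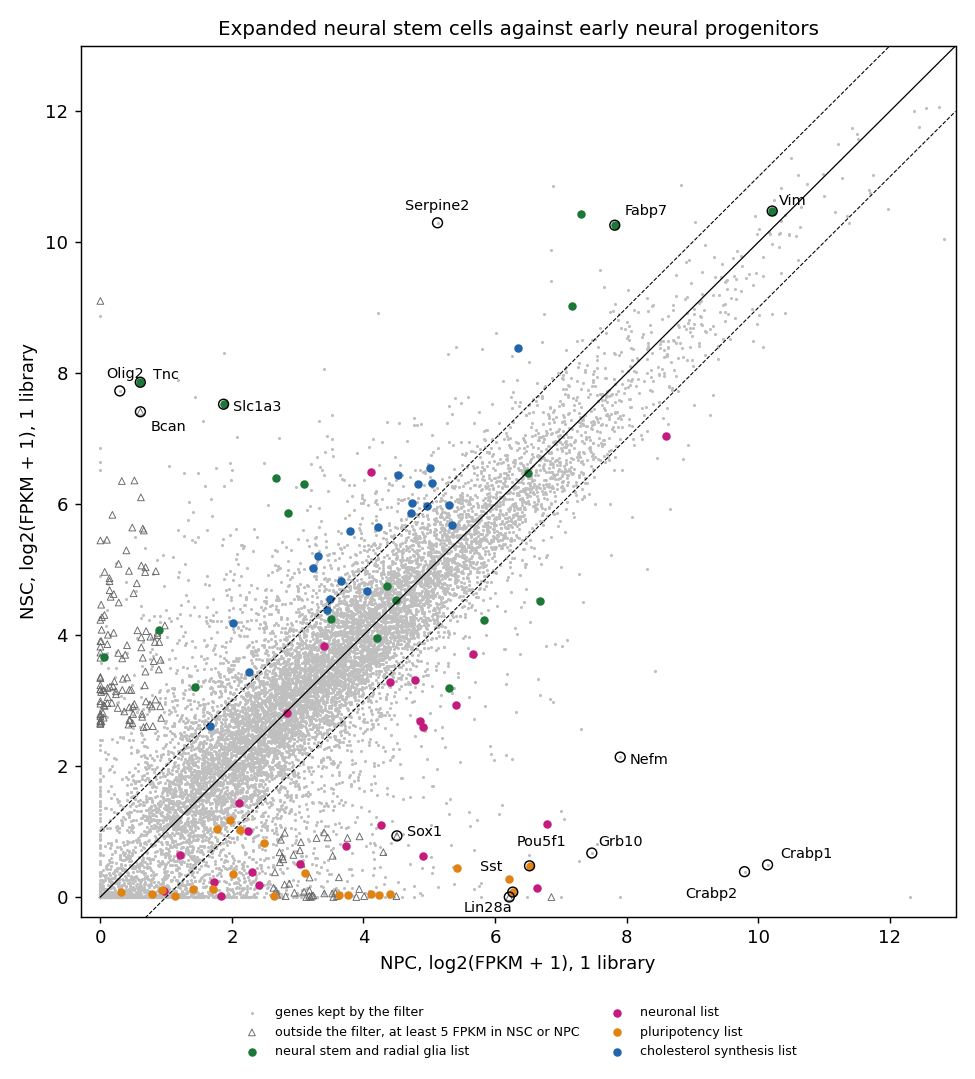
Level of each gene in NSC (vertical) against NPC (horizontal), both as log2(FPKM + 1) of 1 library; the solid line marks equality and the dashed lines a difference of 1 log2 unit. Cholesterol synthesis genes lie above equality, most pluripotency genes lie along the bottom, and triangles along both axes are genes such as Bcan and Sox1 that the filter leaves out.

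The radial glia programme was higher in NSC, but not all of it. Of 25 listed genes of neural stem cells and radial glia, 20 passed the filter, with 11 higher and 3 lower in NSC and a median difference of 1.82, beside -0.03 over all compared genes and beside 10.6% and 10.9% called. These 2 shares stand beside every list count below, and a count near them is no result about the list. The matrix glycoprotein Tnc (232 FPKM in NSC, 0.523 in NPC) had the largest difference, 7.26 log2 units. The glutamate transporter Slc1a3 (183 and 2.66 FPKM), the receptor phosphatase Ptprz1 (83.8 and 5.38) and the homeodomain cofactor Hopx (11.7 and 0.0405) followed. In the ES and ME columns Tnc stayed between 0.402 and 9.49 FPKM and Slc1a3 between 2.55 and 5.98, so NSC stood apart from all 6 other columns in both. The intermediate filament gene Nes was at 522 FPKM in NSC and 142 in NPC.

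The same list held genes at like or lower levels in NSC. Sox2, needed for neural stem cell self-renewal, was at 88.1 FPKM in NSC and 89.5 in NPC. Vim, another intermediate filament gene, was at 1425 and 1186 FPKM, and Rfx4 at 26.0 and 19.6. The 3 lower genes were the RNA-binding protein gene Msi1 (21.9 FPKM in NSC, 102 in NPC), the surface marker Prom1 (8.12 and 38.4) and the transcription factor Pax6 (17.7 and 55.9). Levels of Pax6 in the ES and ME columns were 2.78 FPKM or less, which puts NSC between them and NPC.

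Among 12 transcription factors known from such lines, 3 were higher and 2 lower in NSC, with a median of 0.34. They belong to the bHLH and related families, apart from the homeobox genes Nkx2-2 and Nkx6-2. Olig2 was at 211 FPKM in NSC and 0.227 in NPC, and Olig1 at 115 FPKM in NSC and listed at 0 in NPC. Both encode factors of ventral progenitors and the oligodendrocyte lineage. The ES cell mean at day 0 was 12.0 FPKM for Olig2 and 5.70 for Olig1. Id3, an inhibitor of differentiation factors, was also higher (122 and 18.4 FPKM), whereas Id4 (0.818 and 8.03) and Nkx6-2 (0.163 and 3.27) were lower.

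The sequence before the start of Fabp7 is shown because, of the 4 markers, it is the one high in both libraries, at 1227 and 225 FPKM. Capitals mark a match to AGGTCA, the core motif of nuclear receptors, here on the opposite strand and starting 171 bases before the RefSeq start of transcription.
Fabp7 promoter (GRCm38.p6, chr10:57784673-57784922, plus strand): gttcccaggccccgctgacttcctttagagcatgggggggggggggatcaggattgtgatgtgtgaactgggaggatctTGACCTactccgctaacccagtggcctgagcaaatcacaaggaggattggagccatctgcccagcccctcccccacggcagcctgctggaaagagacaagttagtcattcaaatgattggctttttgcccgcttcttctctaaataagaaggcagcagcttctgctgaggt

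Genes that report EGF and FGF signalling were higher in the cells grown in these factors. Of 24 listed receptors and feedback genes 22 passed the filter, and 12 were higher and 2 lower in NSC, with a median of 1.28. Spry4, a feedback inhibitor of receptor signalling, was at 87.8 FPKM in NSC and 1.42 in NPC, and at 5.88 to 18.4 in the ES and ME columns, so NPC was the lowest column. The immediate early gene Ier3 was at 18.2 and 0.536 FPKM. The ETS factor Etv5, a target of FGF signalling, was at 110.3 and 9.72 FPKM, and Egfr, the receptor of EGF, at 17.7 and 1.10. Dusp6 (77.5 and 13.5 FPKM) and Spry1 (37.8 and 5.40) went the same way, and Dusp4 (49.3 and 50.6) and Fgfr1 (27.5 and 30.7) were alike in both. The 2 lower genes were the receptors Fgfr2 (2.42 and 13.5 FPKM) and Fgfr3 (1.23 and 7.54). Of 16 listed FGF and EGF family ligands 11 passed the filter, and 8 of these were lower and none was higher, with a median of -1.54. Fgf15, a secreted factor of the embryonic brain, was listed at 0 in NSC and stood at 26.1 FPKM in NPC. Fgf4 (0.0104 and 5.22 FPKM), Fgf13 (0.322 and 4.48) and Fgf8 (0.355 and 3.47) were the next lowest. Among the 5 ligands outside the filter, Fgf1 went the other way, at 49.0 FPKM in NSC and 0.4 in NPC, the highest ligand level in NSC, and Areg was at 2.09 FPKM in NSC and listed at 0 in NPC. With a filter on the mean of NSC and NPC of at least 5 FPKM, Fgf1 and Fgf15 alone were left, and their median was 0.20. The culture medium supplied 2 such ligands to NSC, and the part of this in the levels was not tested.

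Matrix and adhesion genes differed in both directions. Of 23 matrix proteoglycan and glycoprotein genes 10 were higher and 4 lower, with a median of 0.61. Besides Tnc and Ptprz1 the higher ones included Sparcl1 (198 FPKM in NSC, 1.70 in NPC) and the proteoglycan gene Ncan (127 and 10.5), whose product neurocan belongs to the same family as brevican. The lower ones were the glypican gene Gpc3 (2.25 and 32.1 FPKM), the laminin chain gene Lama1 (0.441 and 9.59), Fn1 (21.8 and 85.8) and Gpc4 (6.94 and 26.3). Of 27 cadherin, integrin and related genes 10 were higher and 4 lower. Cdh4 (55.7 and 2.23 FPKM), Itga1 (12.2 and 0.0687), Itga9 (12.8 and 0.722) and Ncam1 (148 and 26.4) were highest by difference. Itga3 (0.113 and 17.2 FPKM), the epithelial cadherin gene Cdh1 (0.0418 and 11.7), Cdh11 (0.635 and 6.93) and L1cam (0.0115 and 1.99) were lower.

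The programme of early neuroepithelium was lower in NSC. Of 25 listed genes 16 passed the filter, and 13 of these were lower and 2 higher, with a median of -1.65. The Wnt antagonist Sfrp2 was at 9.99 FPKM in NSC and 345 in NPC, with 4.39 to 12.6 in the ES and ME columns. That places NSC within the range of non-neural cells for this gene. Sfrp1 (6.08 and 78.8 FPKM) was lower too, and Otx2, a factor of anterior neuroectoderm, was listed at 0 in NSC and at 5.23 FPKM in NPC. Other members kept an intermediate level: Irx3 was at 17.4 FPKM in NSC, 91.5 in NPC and 4.92 or less in the ES and ME columns. The 2 higher genes were the LIM homeobox gene Lhx2 (12.7 and 1.13 FPKM) and the POU factor gene Pou3f1 (31.4 and 5.49).

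Crabp1 and Crabp2 had the largest differences of all listed genes. Crabp1, like Crabp2 a binding protein that holds retinoic acid in the cytoplasm, was at 0.405 FPKM in NSC and 1129 in NPC, and at 4.81 to 13.6 in the ES and ME columns. The difference was -9.65 log2 units for Crabp1 and -9.41 for Crabp2. Fabp3 (0.0725 and 11.2 FPKM) was also lower, whereas Fabp5 (496 and 221) was higher along with Fabp7, and 3 of the 8 compared members lay within 1 log2 unit. Of 11 compared retinoid enzymes and receptors none was higher and 3 were lower: the receptor gene Rara (8.94 and 26.7 FPKM), the retinoic acid hydroxylase gene Cyp26a1 (1.02 and 3.68) and Nr2f1 (17.7 and 38.7). The levels of Rarg (7.80 and 9.27 FPKM) and Rxrb (6.74 and 8.15) were close. Outside the filter, Rarb (15.7 and 0.620 FPKM) and Aldh1a1 (2.25 and 0.0198) had a higher level in NSC. Cyp26b1 (0.0391 and 9.59) had a lower one, and the other listed genes there were below 1 FPKM in both libraries.

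Of the 15 compared Notch pathway genes none was higher (1 after rescaling to equal sums) and 4 were lower, with a median of -0.25. The lower ones were the ligands Dll1 (5.45 FPKM in NSC, 28.0 in NPC), Jag2 (0.0228 and 3.50) and Dll3 (0.302 and 3.92) and the feedback gene Nrarp (4.02 and 17.6). Dll1 and Dll3 are made by cells that begin to form neurons. The receptor genes Notch1 (17.9 and 10.4 FPKM), Notch2 (7.62 and 11.1) and Notch3 (10.7 and 13.7) and the target Hes1 (14.6 and 17.5) were within 1 log2 unit. Hes5, a direct Notch target, lay outside the filter, with 0.422 FPKM in NSC, 7.33 in NPC and 0.0815 or less elsewhere. Its promoter is shown because it is the Notch target with the largest difference here. Capitals mark the 2 matches to GTGGGAA, the motif of the Notch cofactor RBPJ, which start 226 bases (opposite strand) and 83 bases (same strand) before the RefSeq start.
Hes5 promoter (GRCm38.p6, chr4:154960673-154960922, plus strand): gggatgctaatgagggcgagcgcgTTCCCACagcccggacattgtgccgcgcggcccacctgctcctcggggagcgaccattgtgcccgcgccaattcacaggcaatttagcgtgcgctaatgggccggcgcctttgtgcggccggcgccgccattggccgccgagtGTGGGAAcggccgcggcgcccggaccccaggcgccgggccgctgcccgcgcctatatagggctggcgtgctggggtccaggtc

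Neuronal genes were lower in NSC. Of 35 listed genes of neuronal differentiation 24 passed the filter, and 18 were lower and 1 higher, with a median of -1.87. Tubb3, a neuron-specific tubulin, was at 1.17 FPKM in NSC and 109 in NPC, and at 1.81 to 34.6 in the ES and ME columns. Elavl3, an RNA-binding protein of new neurons, was at 0.546 and 29.1 FPKM, and Elavl4 at 1.14 and 18.3. Some of these genes were also high outside the neural columns. Stmn2 was at 0.105 FPKM in NSC and 99.1 in NPC, but also at 131 in ES cells at day 0 and 59.2 in ME, and the neurofilament gene Nefl was at 1.29 FPKM in NSC, 131 in NPC, 59.8 at day 0 and 132 in ME. For these genes NSC was the column that stood apart. Map2 was the exception in direction, at 89.4 FPKM in NSC and 16.3 in NPC. Of the 8 compared intermediate filament genes Nes was higher, and Nefl, Nefm, Nefh (0.0232 and 5.52 FPKM), Ina (6.66 and 41.3) and Prph (0.114 and 1.72) were lower.

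Genes of positional identity differed in both directions, and many lay within 1 log2 unit. Of 14 compared dorsoventral patterning genes 8 were lower and none was higher, among them the dorsal factor Pax3 (2.57 FPKM in NSC, 28.9 in NPC), Irx3, Gli3 (3.42 and 20.6) and Nkx6-2. Of 14 midbrain and hindbrain genes 7 were lower and 2 higher. En1, a midbrain and anterior hindbrain factor, was higher (21.0 and 3.57 FPKM), and Hoxb1, which was listed at 0 in NSC and at 4.05 FPKM in NPC, Irx2 (5.56 and 27.2), Fgf8 and Gbx2 (5.60 and 17.5) were lower. Only 3 of 17 forebrain genes passed the filter. These were Emx2 (12.4 and 0.181 FPKM) and Lhx2, both higher, and Otx2. En1 and Emx2 thus stood higher in the same library, which 1 bulk library cannot assign to the same or to different cells.

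Of 39 Hox genes 12 were compared. Hoxa7 (5.12 FPKM in NSC, 1.14 in NPC) and Hoxa3 (9.13 and 3.56) were higher. Hoxb8 (0.724 and 9.77 FPKM), Hoxb7 (1.58 and 14.5), Hoxb1 and Hoxb2 (6.08 and 14.0) were lower. Hoxa2 (16.7 and 24.6 FPKM), Hoxb3 (6.71 and 10.8) and Hoxb4 (4.43 and 8.28) were expressed in both and lay within 1 log2 unit. The 4 Hox genes called lower were all of the B cluster and the 2 called higher of the A cluster, a division seen after the values were known.

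Of 25 compared Wnt pathway genes 3 were higher and 7 lower, with a median of -0.57. Over all compared genes 10.6% were higher and 10.9% lower, so the count of higher Wnt genes was near the share of all. The receptor genes Fzd1 (30.4 FPKM in NSC, 2.93 in NPC) and Fzd9 (6.23 and 1.07) and the effector gene Tcf7l2 (28.5 and 9.72) were higher. The effector gene Lef1 (0.350 and 12.7 FPKM), the receptor gene Fzd7 (7.44 and 21.0), Tcf7l1 (12.9 and 34.2) and the ligand gene Wnt7b (2.32 and 7.02) led the lower ones. The feedback target Axin2 was at 15.0 and 9.90 FPKM, a difference of 0.55.

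**Figure D2:**
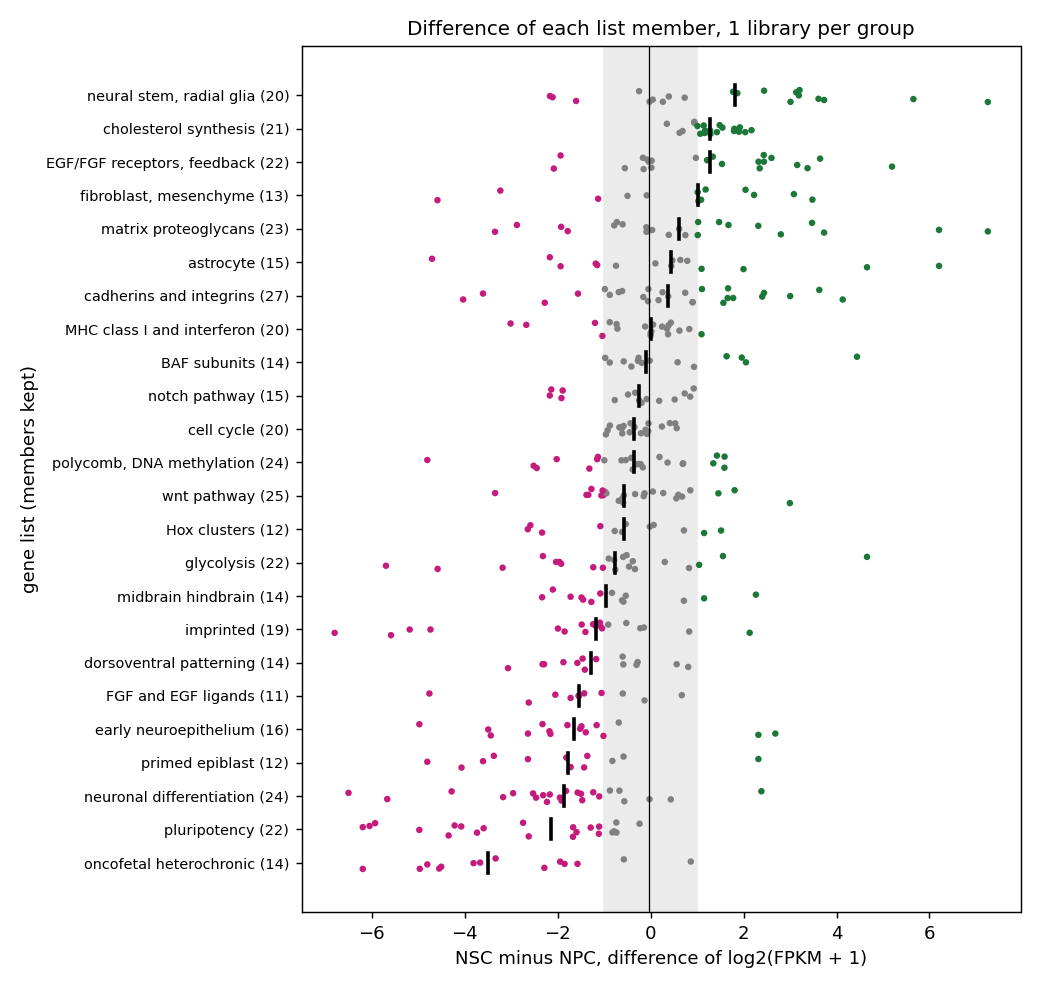
Difference of log2(FPKM + 1), NSC minus NPC, of each compared member of 24 gene lists, sorted by their medians (black bars); green and magenta mark members at or past 1 log2 unit, the grey band lies within it, and the thin line is the median of all compared genes. The medians run from -3.50 for the oncofetal list to 1.82 for the radial glia list, and the 20 cell cycle genes all lie inside the band.

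Transcripts of pluripotent cells were still measured in NPC and near 0 in NSC. Of 22 compared pluripotency genes 17 were lower in NSC and none was higher, with a median of -2.15. Pou5f1, which encodes Oct4, was at 0.391 FPKM in NSC, 91.0 in NPC, 997 in ES cells at day 0 and 177 at day 6 of LIF withdrawal. L1td1 was at 0.215 FPKM in NSC, 73.0 in NPC and 639 at day 0, and Dppa5a at 0.364, 41.9 and 905. Over the 23 listed genes with at least 5 FPKM at day 0, the NPC level had a median of 7.70% of the day 0 level, from 0.131% for Dppa3 to 130% for Lin28a. The NSC level had a median of 0.0920%, with a highest value of 2.44%. Nanog was at 10.8% in NPC and 0.406% in NSC. The share of sorted cells that gave these transcripts was not measured. A promoter window of Pou5f1 is shown because this gene had the highest NPC level of the list. Capitals mark a match to AGGTCA that starts 33 bases before the RefSeq start. Another RefSeq window of Pou5f1 (chr17:35508557-35508806), not shown, held no AGGTCA but a match to CAGCTG, the E-box motif, 143 bases before its start.
Pou5f1 promoter (GRCm38.p6, chr17:35505782-35506031, plus strand): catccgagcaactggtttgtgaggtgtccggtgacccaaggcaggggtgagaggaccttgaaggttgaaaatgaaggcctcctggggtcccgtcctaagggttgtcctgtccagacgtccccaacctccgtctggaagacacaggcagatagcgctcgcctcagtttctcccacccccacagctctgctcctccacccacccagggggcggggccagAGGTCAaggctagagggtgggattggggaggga

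Genes of the primed epiblast, the state that follows naive pluripotency, behaved likewise. Of 12 compared, 9 were lower and 1, Pou3f1, was higher. The de novo DNA methyltransferase gene Dnmt3b (1.4 FPKM in NSC, 66.0 in NPC), Cdh1 and Epcam (0.351 and 13.0) were lower, and Lefty1 was listed at 0 in NSC and at 15.8 FPKM in NPC.

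Oncofetal and heterochronic genes are expressed in embryonic and cancer cells and are turned down as tissues mature. Of the 14 listed 12 were lower and none was higher, with a median of -3.50. Lin28a, which blocks maturation of let-7 microRNAs, was at 0.0538 FPKM in NSC and 76.1 in NPC, and at 58.4 to 104 in the ES and ME columns. NPC thus sat within the range of the other cells for Lin28a, and NSC far below all of them. The mRNA-binding protein gene Igf2bp1 (0.646 and 50.5 FPKM), Dnmt3b and Mycn (1.27 and 52.1) came next, and Lin28b (0.0844 and 23.6), Hmga1 (9.02 and 100.2) and Hmga2 (11.8 and 48.2) were also lower. Igf1r (18.9 and 9.94 FPKM) and Hmgb2 (652 and 972) lay within 1 log2 unit.

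Imprinted genes, expressed from the copy of 1 parent, were lower in NSC in 13 of 19 compared cases, with a median of -1.19. Grb10, a growth regulator, was at 0.593 FPKM in NSC and 176 in NPC, with 2.74 in ME and 20.3 to 67.4 in ES cells. The non-coding RNAs Rian (0.122 and 52.9 FPKM) and Meg3 (0.147 and 40.7), which come from the same imprinted domain, were at least 15.3 FPKM in every ES and ME column, so NSC alone was near 0. The cell cycle inhibitor gene Cdkn1c was at 4.95 and 158 FPKM. Airn, an antisense RNA of Igf2r, was the single member called higher, at 7.94 and 1.04 FPKM, and Igf2r itself was at 44.2 and 24.4. The sources used here do not say if counting used strand, so reads of Airn and Igf2r cannot be fully separated.

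Of 14 compared subunits of the BAF remodelling complex 4 were higher and none was lower. Dpf3 (53.4 FPKM in NSC, 1.5 in NPC), Dpf1 (28.5 and 6.57), Smarca2 (59.2 and 13.5) and Smarcd3 (25.7 and 7.59) were higher, whereas Smarca4, the main ATPase gene, was at 163 and 165. Dpf1 and Dpf3 are subunits of the neuronal form of the complex, whose subunit gene Actl6b was outside the filter at 0.111 and 1.46 FPKM. Of 24 polycomb and DNA methylation genes 4 were higher and 7 lower. The higher ones included the polycomb genes Cbx8 (8.84 and 2.27 FPKM) and Cbx6 (13.5 and 3.81) and the demethylation gene Tet3 (8.29 and 2.65). Dnmt3b, Pcgf2 (1.02 and 10.6 FPKM), Cbx7 (0.416 and 6.74) and Dnmt3l (0.0406 and 3.22) were lower, and the maintenance methyltransferase gene Dnmt1 was at 117 and 131.

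**Figure D3:**
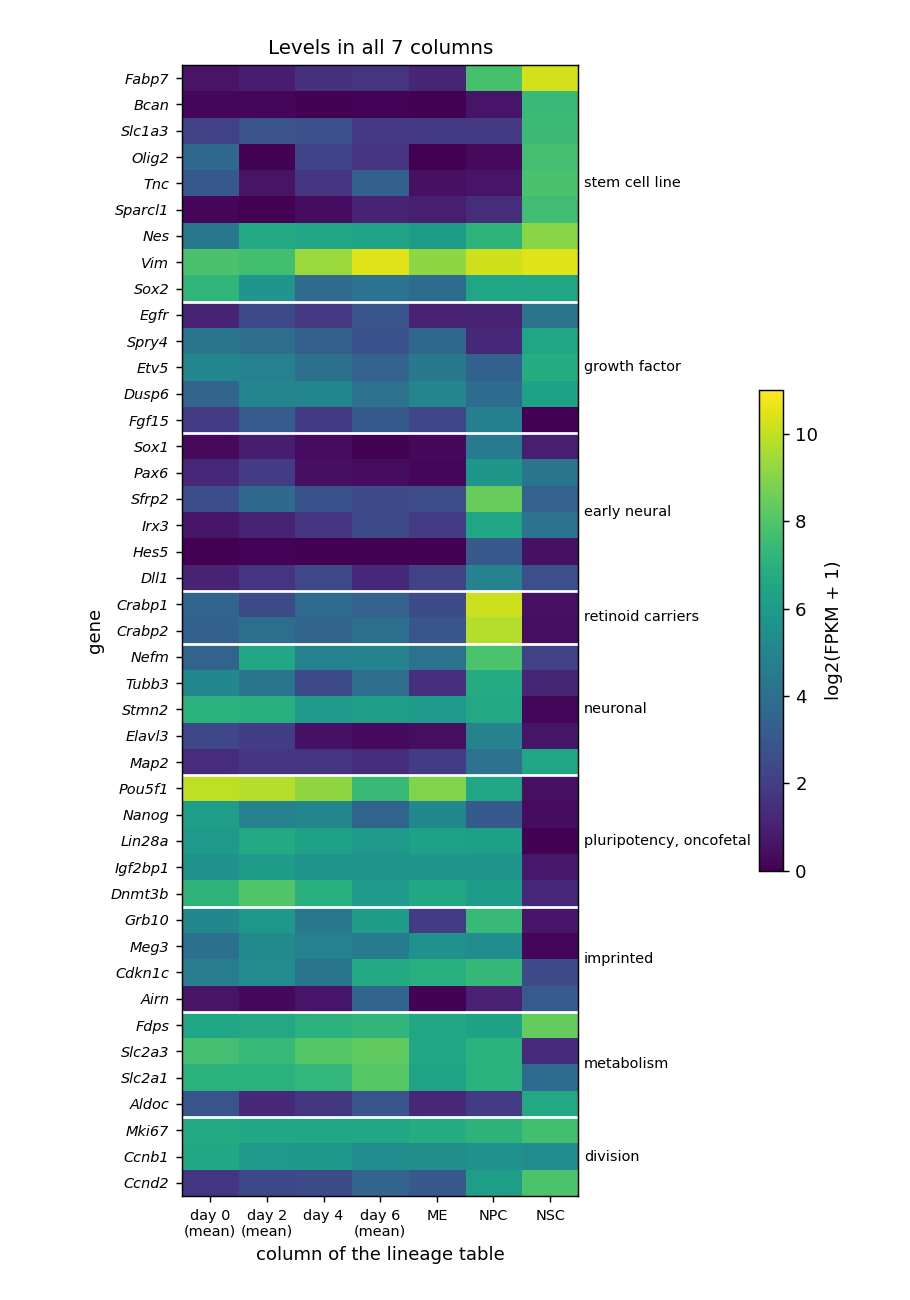
Levels, as log2(FPKM + 1), of 43 genes in all 7 columns of the table; day 0, day 2 and day 6 are the authors' means and the other columns are single libraries. NSC is the highest column for the genes from Fabp7 down to Nes, of which Fabp7 (225 FPKM) and Nes (142 FPKM) are also high in NPC. For Lin28a, Igf2bp1 and Meg3 NSC stands apart as the lowest column, whereas Crabp1 and Crabp2 stand apart in NPC.

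None of 20 cell cycle genes reached 1 log2 unit, and their median was -0.35. The highest was Mki67 (202 FPKM in NSC, 137 in NPC) and the lowest Mcm3 (91.5 and 179), at -0.96. When NPC was rescaled to equal medians, 2 of the 20 were called lower. Regulators of G1 entry did differ. Of 13 D cyclins, inhibitors and partners 5 were higher: Cdkn2b (4.43 and 0.276 FPKM), Ccnd2 (234 and 68.8), Cdkn2a (43.8 and 14.7), Cdkn1a (67.7 and 24.7) and Ccnd1 (107 and 45.6). Cdkn1c, Cdk6 (0.117 and 4.87 FPKM) and Ccnd3 (18.6 and 43.1) were lower.

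All 21 compared genes of cholesterol synthesis had a higher level in NSC, with differences from 0.35 to 2.17 and a median of 1.28, and 16 reached 1 log2 unit (14 after rescaling to equal medians and 18 after rescaling to equal sums). Tm7sf2 (17.2 FPKM in NSC, 3.05 in NPC), Fdps (335 and 80.9), Insig1 (86.3 and 22.1) and Mvk (36.0 and 8.91) had the largest differences. The smallest difference was that of Fdft1 (50.6 and 39.5 FPKM).

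Glucose uptake and glycolysis went the other way. Of 22 genes 9 were lower and 3 higher, with a median of -0.77. The glucose transporter genes Slc2a3 (1.48 FPKM in NSC, 128 in NPC) and Slc2a1 (13.3 and 129) were lower, and the lactate exporter gene Slc16a3 was listed at 0 in NSC and at 23.0 FPKM in NPC. Pfkl, a phosphofructokinase gene, was at 15.2 and 79.9 FPKM. In the ES and ME columns Slc2a3 was at 96.2 FPKM or more, so NSC was the only low column. Aldoc, the aldolase of brain, was higher (97.5 and 2.91 FPKM), as were Ldhb (149.7 and 50.2) and Hk1 (25.1 and 11.6). Of 17 genes of the ATF4 stress response 1, Cebpb (2.92 and 0.643 FPKM), was higher. Atf3 (0.100 and 3.56), Asns (25.0 and 87.4) and Chac1 (0.874 and 3.59) were lower, and Atf4 itself was at 69.6 and 80.7.

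Markers of glia beyond the stem cell state were mixed. Of 15 compared astrocyte genes 4 were higher, Sparcl1, Aldoc, Glul (72.3 FPKM in NSC, 17.3 in NPC) and Aldh1l1 (1.46 and 0.151), and 5 were lower, led by Mt2 (1.65 and 68.1), Apoe (102 and 463), Fgfr3 and Gja1 (31.9 and 73.7). Of the 6 listed astrocyte genes outside the filter, Acsbg1 (80.8 and 0.253 FPKM) and Mlc1 (24.7 and 0.102) had a higher level in NSC, and so had the calcium-binding protein gene S100b, at 3.82 FPKM in NSC and listed at 0 in NPC. Gfap, the filament gene of mature astrocytes, was at 0.117 and 0.0144 FPKM, Aqp4 at 0.198 and 0.266, and Gjb6 was listed at 0 in both. Of 7 compared oligodendrocyte progenitor and myelin genes Olig2, Olig1 and Cnp (10.2 and 1.97 FPKM) were higher. Myrf (0.266 and 4.13) and Mbp (0.0413 and 1.64) were lower, and Pdgfra was at 0.271 and 0.244. The high Olig2 level was thus not accompanied by Pdgfra, the receptor that defines oligodendrocyte progenitors.

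Markers of other cell types were checked for both libraries as lists. Of 13 compared neural crest genes 3 were higher in NSC, Sox8 (76.3 FPKM in NSC, 2.01 in NPC), Ets1 (7.23 and 1.39) and Twist1 (31.8 and 9.50). The 5 lower ones were led by Ngfr (0.184 and 9.85), Pax3, Ednrb (5.05 and 35.5) and Pax7 (1.48 and 6.38), and the listed genes summed to 127 FPKM in NSC and 115 in NPC. Of 13 fibroblast and mesenchyme genes 8 were higher, led by Fbln2 (17.7 and 0.673 FPKM), Col3a1 (7.99 and 0.0606), Col6a1 (4.31 and 0.134) and Thy1 (4.68 and 0.379). The lower ones were Tagln (0.129 and 26.1), Acta2 (0.112 and 9.46) and Col1a2 (0.142 and 1.5), and Col1a1 was at 0.443 and 1.04. These summed to 70.4 FPKM in NSC and 49.8 in NPC. Mesendoderm and mesoderm genes summed to 5.79 and 8.10 FPKM, with Kdr (2.05 and 0.386) higher and Cxcr4 (0.738 and 5.34) lower. Endothelial and blood genes summed to 12.8 and 2.59 FPKM, of which Emcn, outside the filter, gave 9.28 in NSC. Of the surface ectoderm and trophoblast genes Epcam, Krt18 (0.375 and 5.14) and Krt8 (0.761 and 5.15) were lower. Extraembryonic endoderm genes had Col4a1 (66.0 and 23.1 FPKM) higher and Lama1 lower. Sparc (66.2 and 42.9) and Col4a2 (27.6 and 26.9) of this list were expressed in both libraries and lay within 1 log2 unit. Its transcription factor genes Gata4, Gata6 and Sox17 were below 1 FPKM in both. Of 20 compared MHC class I and interferon genes Tap2 (2.76 and 0.760 FPKM) was higher, and Ifitm1 (0.126 and 8.09), Bst2 (0.717 and 9.96), H2-K1 (9.13 and 22.2) and H2-D1 (6.35 and 14.1) were lower. Tsix (listed at 0 in NSC, 1.73 FPKM in NPC) and Eif2s3y were the lower genes among the sex-linked transcripts. The part of other cells in any result was not tested.

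Among single genes with the largest differences, chosen by rank and not by list, several secreted proteins stood out in NSC. Serpine2, a protease inhibitor, was at 1258 FPKM in NSC and 33.9 in NPC, and at 6.09 to 28.2 elsewhere. Igfbp3, which binds insulin-like growth factors, was at 317 and 2.67 FPKM, but also at 266 in ME and 208 at day 4. For Igfbp3 it was NPC, together with the day 0 mean of 17.7, that was low. Gas6, a ligand of TAM receptors, was at 154 and 1.94 FPKM, the membrane protein gene Tmem176b at 238 and 1.27, the epoxide hydrolase gene Ephx1 at 94.7 and 1.07, and the homeobox gene Hlx at 42.5 and 0.0373. On the lower side Igdcc3, an immunoglobulin family gene, was at 0.460 FPKM in NSC and 154 in NPC. The nuclear non-coding RNA Malat1 was at 0.561 and 90.9 FPKM, and at 9.38 to 87.9 elsewhere.

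Some of the largest values are doubtful as measurements of a gene. Among the 15 genes ranked highest and the 15 ranked lowest, 5 are small RNA entries under 200 bases, Snora44, Snora7a, Mir703, Snora78 and Snora17, for which a few fragments give a large FPKM. Mir703, for example, was at 5095 FPKM in NPC and listed at 0 in NSC. Nolc1 was at 99.5 FPKM in NSC but listed at 0 in NPC, ME and day 2, and Sept7 was at 238 FPKM in NPC and 231 in ME but listed at 0 in the other 5 columns. Both are genes that most cells express, so a 0 there may be a failed estimate. Malat1 is also such a gene, and whether its low NSC value is a failed estimate was not tested. Insl6 was at 187 FPKM in NPC and at 6.91 or less in all other columns. Of the 1365 genes called lower, 124 were listed at 0 in NSC, and of the 1329 called higher, 31 were listed at 0 in NPC.

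The filter asks for 1 FPKM in 2 columns and so leaves out genes found in a single column, such as those detected in NSC or NPC alone. Outside it, 118 entries had at least 5 FPKM in NSC (100 of them named genes) and 46 had it in NPC (45 named), and none had it in both. These are not in the counts above, and since a single high column selects them, their direction is fixed. On the NSC side, besides Bcan, they held the 3 nuclear factor I genes of gliogenesis, Nfib (30.6 FPKM in NSC, 0.353 in NPC), Nfix (23.0 and 0.114) and Nfia (15.4 and 0.825). Acsbg1, Mlc1 and Fgf1, the retinoic acid receptor gene Rarb (15.7 and 0.620), the cell cycle inhibitor gene Cdkn2c (16.7 and 0.972) and Hoxa5 (9.22 and 0.325) were there as well. On the NPC side were the neuronal factors Nhlh2 (0.00933 FPKM in NSC, 21.6 in NPC) and Neurod4 (0.00935 and 11.1). The neuropeptide gene Sst was listed at 0 in NSC and at 73.4 FPKM in NPC. Tfap2b (0.0100 and 15.1) and the retinoic acid hydroxylase gene Cyp26b1 (0.0391 and 9.59) were on the same side. All of these were named after their values were seen, apart from Bcan.

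Promoters of the genes with the largest differences were searched for 4 short motifs. RefSeq windows of 250 bases before the start were found for 8844 of the 12511 genes (11395 windows), for 252 of the 376 genes higher past a fold of 4 (356 windows) and for 256 of the 416 lower (362 windows). The RBPJ motif GTGGGAA, on either strand, was in 5.16% of all windows, 4.49% of those of higher genes and 5.80% of those of lower genes. The core of the nuclear factor I motif, TTGGCA, was in 9.14%, 12.1% and 7.73%. The nuclear receptor core AGGTCA was in 10.3%, 11.0% and 11.9%, and the E-box CAGCTG, which bHLH factors bind, in 11.7%, 14.9% and 14.4%. A match is only a run of letters and no sign of binding, and several windows can belong to a gene. In the 3 promoters printed above no match overlapped another.

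Genes of chromosome 6 as a group were higher in NSC. Over the 7512 compared named genes with a mean of at least 5 FPKM in NSC and NPC, the median difference on chromosome 6 lay 0.39 above that of all genes (356 genes, 67.4% of them above 0), whereas the other autosomes lay between -0.15 and 0.09. In consecutive windows of 50 genes the shift was seen from window 3 on, which starts at 54935089 (mm9). This position is a window edge, and windows of this size cannot place the start of the shift more closely. The 256 genes from there to the end of the chromosome had a median 0.51 above all genes, and the 100 genes before it a median of -0.02 relative to all. The windows of the remaining chromosomes stayed between -0.43 and 0.35. Against the day 0 mean, chromosome 6 lay 0.22 above all genes in NSC and -0.12 in NPC, and against ME 0.22 in NSC and -0.03 in NPC. The HoxA cluster lies before window 3, and whether the shift reaches it was not tested. Of compared chromosome 6 genes 21.3% were called higher in NSC, beside 10.1% on the other chromosomes. Its part in single genes was not tested, and whether the number of copies of the chromosome differs was not measured. The plot of window medians shows the stretch.

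**Figure D4:**
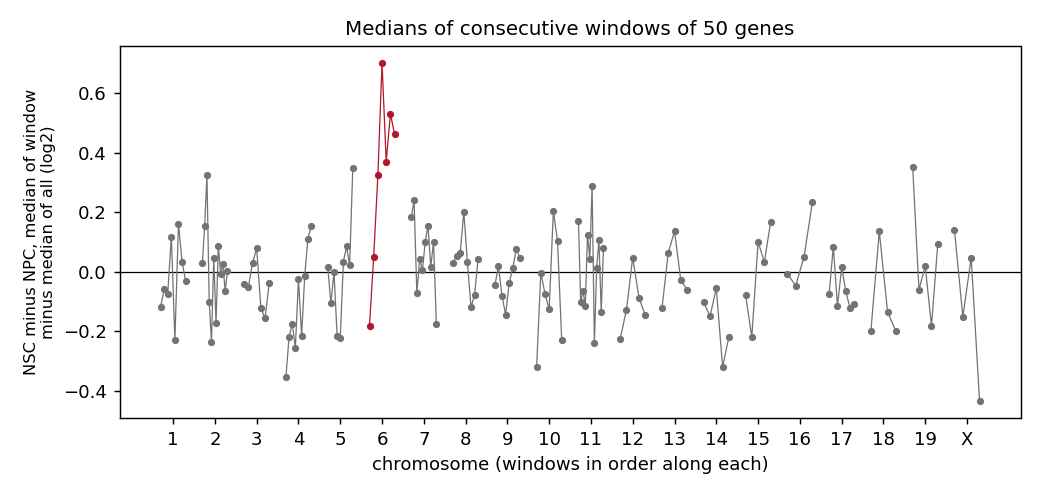
Median of the NSC minus NPC difference in consecutive windows of 50 compared named genes along each chromosome, minus the median of all genes (log2 units); chromosome 6 is in red. The last 5 windows of chromosome 6 lie between 0.32 and 0.70 above the median of all genes, and 4 of them lie above every window of the other chromosomes.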

How the data were processed

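The authors deposited 1 table of FPKM per gene; no header names this unit, which was judged from the range and steps of the values. Libraries were made with a stranded mRNA kit, per the labels' protocols. The submitters' processing notes name Bowtie 1.0.0, TopHat2 2.0.11 and build mm9 without their role, and the program behind the FPKM is not named in these sources. Of the 39067 entries, 11621 are unnamed loci, and 11 with a repeated symbol were left out. Steps of low values of short entries gave an approximate depth of 34.5 M fragments for NSC (22 entries on the line) and 27.7 M for NPC (9 entries, against 5 on the best other line).

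Differences of log2(FPKM + 1) were computed with pandas 2.3.3, and the script was checked on simulated data. With 1 library per group no test was possible. Named were the 4 markers and Sox1, the 15 genes highest and lowest by difference (named genes, at least 5 FPKM in NSC or NPC), and in each of 38 lists up to 4 members furthest from 0 past the fold in each direction. Other names were added after their values were seen. The members and lists were chosen with earlier results of these data known. Of 680 listed symbols 675 matched directly, 2 through a synonym and 3 not at all. Promoters are from RefSeq, GRCm38.p6. The alternatives tried were other pseudocounts, filters, folds and scalings. A few genes are not reported here.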

Additional observations from a re-analysis of the deposited data

How the results depend on the processing

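The counts of genes higher and lower in NSC were 1329 and 1365. With a pseudocount of 0.1 FPKM 2131 genes were lower, and with 5 FPKM 705 were higher and 562 lower. A filter on the mean of NSC and NPC of at least 5 FPKM left 696 lower, and a fold of 4 left 376 higher and 416 lower. No filter, rescaling to equal medians or sums, named genes only and, chosen after seeing the data, at least 1 FPKM in NSC or NPC, or no chromosome 6, kept both counts within 1.5 times. Of the recomputed medians of 38 lists, 256 moved by less than 0.58 log2 units, a factor of 1.5, and 43 moved further. The other 2 lost the sign of a median past 1 log2 unit: FGF and EGF ligands at a mean of at least 5 FPKM (0.20, with 2 genes left) and forebrain genes without a filter (0, with 17 genes). Among lists with a median nearer 0, 7 values took the opposite sign and 4 fell to 0, and the D cyclin and inhibitor list went from -0.22 to 0.37 under each of 3 filter settings. Rescaling to equal medians moved a list median by at most 0.10 log2 units and took that of the MHC list from 0.01 to -0.01, and equal sums moved one by at most 0.09. No paired analysis was possible because each group is 1 library, and no library could be left out.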
